A study of Homo sapiens with 9 samples.

Results

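Knockdown of the RNA helicase DHX15 was compared with a control hairpin in KOPTK1 cells. KOPTK1 is an established human line of T-ALL, an acute leukaemia of immature T cells. The comparison used the 3 libraries labelled shDHX15 and the 3 labelled as control hairpin (shControl), which are 6 of the 9 libraries of the series. They were taken by group label alone, and all genes that passed a filter on low counts were described: 14358 of the 17637 genes in the count table. The series asks whether MYC acts downstream of DHX15, and the remaining 3 libraries, in which MYC was added back, were not used. All 6 libraries share the genotype label WT, the growth medium and the poly(A)+ library protocol. Cells of the knockdown group received a lentivirus that expresses a DHX15 hairpin. The table's control columns are named for a GFP hairpin, and the knockdown columns carry 1 hairpin number and no target name. They were taken as shDHX15 because the labels give no other target. With 1 hairpin, loss of DHX15 and any action of that hairpin on other transcripts cannot be told apart. The labels do not say whether replicates came from separate transductions or cultures, and each p-value therefore reflects the spread among these 6 libraries alone.

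DHX15 is a DEAH-box helicase that takes apart spent spliceosomes and also acts in ribosome maturation. It is switched on by partner proteins that carry a glycine-rich G-patch, and it has been described as a sensor of viral RNA that signals through MAVS. MYC is a transcription factor that drives ribosome production and growth in T-ALL. MYC protein is short-lived: kinases, phosphatases, ubiquitin ligases and deubiquitinases set its stability, so its mRNA need not follow its protein, and protein was not measured here.

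DHX15 itself (chr4:24517441-24584550, minus strand, GRCh38) gave 268, 262 and 262 CPM (read counts scaled to a common library total, adjusted by TMM factors) in the shControl libraries and 174, 155 and 148 CPM in the shDHX15 libraries. All 3 knockdown libraries lay below all 3 controls, with shDHX15 replicate 1 the highest of the knockdown group. The log2 fold change was -0.73 (SE 0.0506, edgeR quasi-likelihood test, adjusted p = 8.06e-07), so 1.66-fold less DHX15 mRNA was present and a large share remained. MYC gave 104, 102 and 103 CPM in shControl and 81.4, 87.1 and 80.4 CPM in shDHX15. These groups did not overlap either, and MYC mRNA fell by 0.31 on the log2 scale (SE 0.0407, edgeR adjusted p = 8.48e-05).

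Depth was even, with 45672922 to 59688062 counts per library, and mitochondrial genes took 3.87 to 3.99% of counts in shControl and 3.67 to 3.87% in shDHX15. The shDHX15 replicate 1 library stood apart. Its counts differed from replicates 2 and 3 by a chi-square of 18.0 and 17.0 per degree of freedom, against 4.44 between replicates 2 and 3 and 3.08 to 3.10 between shControl libraries. It was the least moved knockdown library in 41.3% of the genes called, against 29.5% and 29.2% for the others. Leaving it out gave 3705 higher and 3686 lower calls, with 134 and 290 past the 2-fold mark. Counts over gene lists without it are given where they move by over 1.5 times. The CPM ranges of the groups did not overlap for 7706 of the genes tested (53.7%).

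Of the 14358 genes tested, 6283 (43.8%) were called at an edgeR adjusted p under 0.05, 3403 of them higher (23.7%) and 2880 lower (20.1%) in shDHX15. The share of calls that were higher was 54.2% here, 65.4% with total counts alone as the scale (4251 higher, 2250 lower) and 44.1% after offsets for GC content and length (2880 higher, 3647 lower). Most changes were small: the median called gene moved 1.23-fold. At least 1.5-fold calls numbered 431 higher (3.00%) and 502 lower (3.50%), and at least 2-fold calls 102 higher (0.710%) and 225 lower (1.57%). Of the 2-fold calls, 76 of those higher and 195 of those lower had a mean level under 1 log2 CPM. Among the 10140 genes with a mean of at least 3 log2 CPM, 5 were called at least 2-fold higher and 17 at least 2-fold lower. The distribution of fold change by level shows this narrowing.

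**Figure D1:**
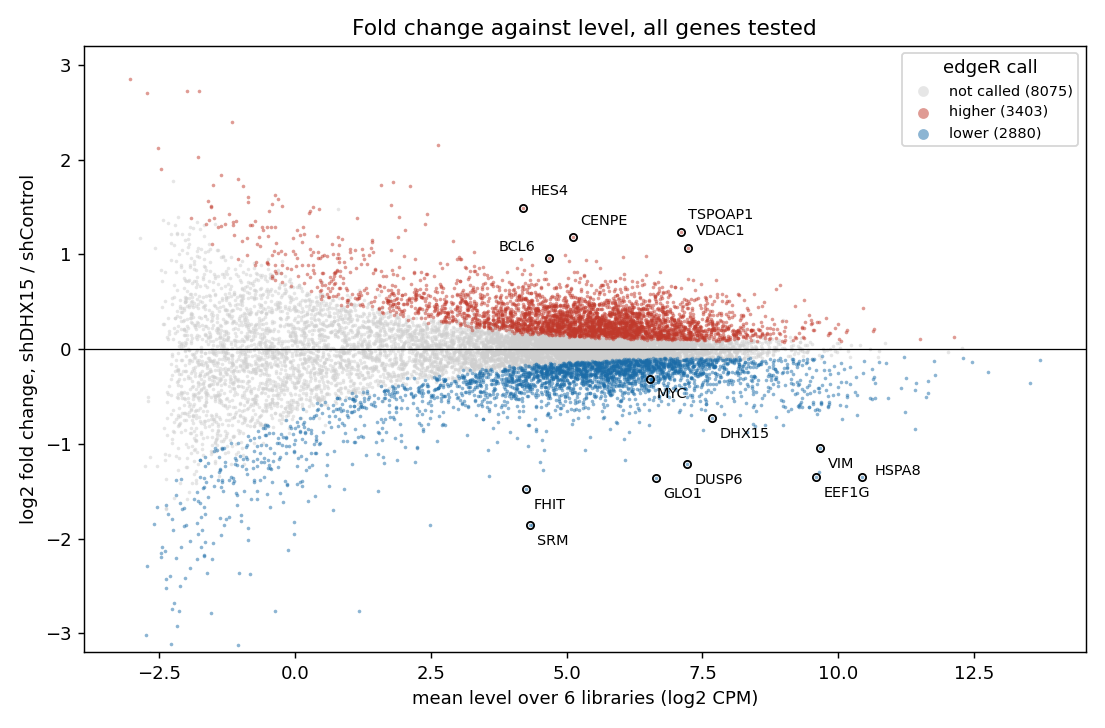
Log2 fold change (shDHX15 over shControl) against mean level in log2 CPM for the 14358 genes tested. Points are genes, coloured by the edgeR call, and 14 genes are circled. A total of 4 genes lie outside the drawn range. Large fold changes crowd at low level, while SRM, GLO1, HSPA8, EEF1G, TSPOAP1 and VDAC1 stand apart at moderate to high level.

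The naming rule took called genes with a mean of at least 4 log2 CPM and groups that do not overlap. Symbols of clones or uncharacterised loci and date-like symbols were left out. Among these genes, SRM (chr1:11054584-11060024, minus strand), which encodes spermidine synthase and is a known MYC target, had the lowest fold change. It gave 37.5, 37 and 40.0 CPM in shControl and 9.69, 11.4 and 10.4 CPM in shDHX15. Every knockdown library held well under the lowest control (log2 fold change -1.86, SE 0.0704, edgeR adjusted p = 9.50e-09). Of 25 polyamine and S-adenosylmethionine genes, SRM included, 3 rose and 7 fell, the latter 11 without shDHX15 replicate 1 and 3 or 4 without shControl replicate 1 or 3 or shDHX15 replicate 2 or 3. With total counts as the scale, 6 rose and 3 fell. ODC1, the first enzyme, gave 182 ± 3.92 CPM in shControl and 176 ± 6.14 CPM in shDHX15 (SD, n = 3) and was called lower only without shDHX15 replicate 1 (-0.08). AMD1, which makes the aminopropyl donor, gave 108, 106 and 109 CPM against 105, 87.8 and 88.6 CPM (-0.20), with shDHX15 replicate 1 near the controls. That call was lost with total counts as the scale and without shControl replicate 1 or 3 or shDHX15 replicate 2 or 3, and the value was -0.31 without shDHX15 replicate 1 and -0.39 after offsets for GC content and length. SMS, spermine synthase, was 0.14 higher (0.21 with the offsets), a call lost without shControl replicate 2 or shDHX15 replicate 2.

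The promoter of SRM is shown because MYC with MAX binds the letters CACGTG (the E-box, read the same on both strands). RefSeq (GRCh38.p14) lists 1 start for SRM, and the 250 bases before it, chr1:11060019-11060268 on the minus strand, hold 1 CACGTG, in capitals, whose first base lies 199 bases before the start.
SRM: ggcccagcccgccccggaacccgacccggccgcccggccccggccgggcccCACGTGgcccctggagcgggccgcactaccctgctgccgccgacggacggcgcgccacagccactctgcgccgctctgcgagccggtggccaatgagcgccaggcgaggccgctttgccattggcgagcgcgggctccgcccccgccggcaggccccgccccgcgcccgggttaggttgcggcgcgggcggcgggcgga
Over the 7606 tested genes with exactly 1 listed start, 9.03% hold CACGTG in the same window. The share was 10.6% of the 1518 that were called lower, 9.54% of the 1866 called higher and 8.14% of the 258 that were at least 1.5-fold lower. The median log2 fold change was 0.02 both for the 687 genes with the letters and for the 6919 without. A match is a string of letters, not a measured binding site.

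Several other genes far down at moderate or high level act in detoxification, protein folding and the cytoskeleton. GLO1, glyoxalase 1, which clears methylglyoxal, gave 159, 162 and 163 CPM in shControl and 66.2, 61.6 and 60.4 CPM in shDHX15 (log2 fold change -1.36). HSPA8, the constitutive cytosolic HSP70 chaperone, gave 2234, 2185 and 2203 CPM against 881, 857 and 866 CPM (-1.35, edgeR adjusted p = 4.71e-11). For both genes the spread within a group was small beside the gap between groups. EEF1G, a subunit of translation elongation factor 1, gave 1234, 1232 and 1232 CPM against 489, 483 and 478 CPM. Near-identical copies share 0.3125 of the windows of EEF1G, so its reads may be split between loci. DUSP6, a phosphatase that turns off ERK kinases, gave 226, 228 and 223 CPM against 96.8, 95.7 and 99.8 CPM. VIM, the intermediate filament vimentin, gave 1178, 1171 and 1168 CPM against 520.5, 586 and 593 CPM. Both fell in every knockdown library, but the rule that named the genes of this paragraph required groups that do not overlap.

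Further genes named by the same rule on the lower side were NEFL (-1.86), a neurofilament subunit, FHIT (-1.48), a diadenosine triphosphate hydrolase, and LIMA1 (-1.27), an actin-binding protein. GLTP (-1.19) transfers glycolipids, DYNLRB1 (-1.17) is a dynein light chain, NABP2 (-1.06) binds single-stranded DNA, LCT (-1.02) is lactase and CMPK2 (-0.96) is a mitochondrial nucleotide kinase. For none of these did the groups overlap, which was part of the rule that named them.

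On the higher side, TSPOAP1 (chr17:58301228-58328760, minus strand), a scaffold protein that binds the mitochondrial translocator protein TSPO, gave 86.7, 92.6 and 90.05 CPM in shControl and 199, 224 and 211 CPM in shDHX15. Its log2 fold change was 1.24 (SE 0.0462, edgeR adjusted p = 9.50e-09). VDAC1 (chr5:133971915-134005133, minus strand), the main anion channel of the mitochondrial outer membrane, gave 103, 107 and 103 CPM against 213, 220.1 and 223 CPM (1.07). Both were far above the control range in each knockdown library. ATAD5, which unloads the sliding clamp PCNA from DNA, gave 62.2, 63.7 and 61.6 CPM against 132, 121 and 118 CPM (0.99). ATRX, a chromatin remodeller, gave 47, 47.7 and 46.4 CPM against 98.7, 92.8 and 85.2 CPM (0.97, and 0.57 after offsets for GC content and length). BCL6, a transcriptional repressor, gave 18.2, 17.8 and 18.7 CPM against 36.4, 35.8 and 34.6 CPM (0.96). All 3 of these genes were higher in every knockdown library than in any control. Groups that do not overlap were part of the rule that named every gene of this paragraph.

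HES4, a NOTCH-responsive repressor, had the highest fold change (1.49) among genes that met the naming rule. It gave 11.2, 11.1 and 12.1 CPM in shControl and 16.9, 31.7 and 48 CPM in shDHX15, a wide spread with replicate 1 lowest and replicate 3 highest, and the log2 fold change was 1.08 without replicate 3. The rest of the 14 were CENPE (1.18) and KIF14 (0.86), both mitotic kinesins, NLGN2 (0.99), a synaptic adhesion protein, and N4BP3 (0.96), which binds the ubiquitin ligase NEDD4. PGM2L1 (0.94) makes glucose bisphosphate, IL6ST (0.93, and 0.62 with the offsets) is the shared receptor chain gp130, ENOPH1 (0.93) acts in methionine salvage, and AGRN (0.88) is the proteoglycan agrin.

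**Figure D2:**
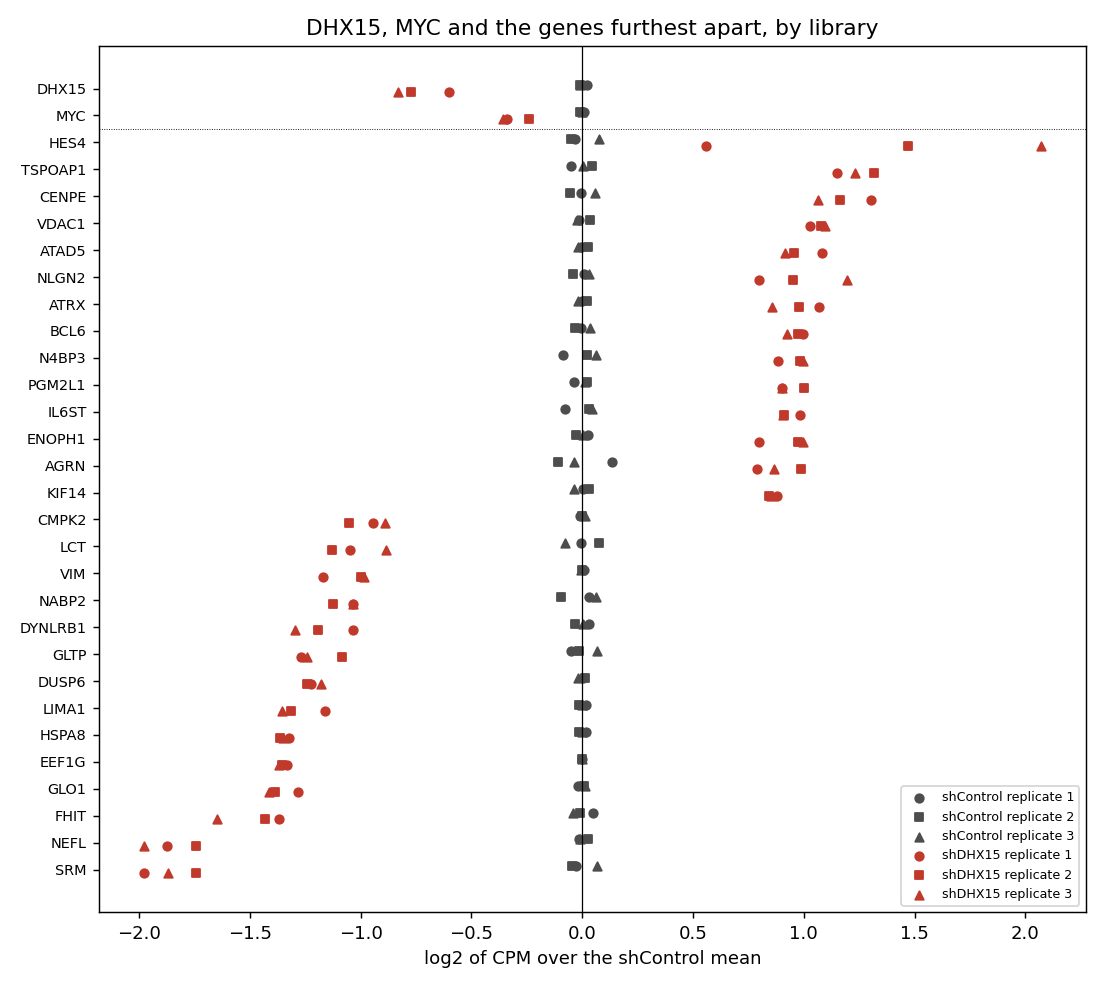
Log2 of each library's CPM over the shControl mean for DHX15, MYC and the 14 highest and 14 lowest genes by the naming rule, which required a mean of at least 4 log2 CPM. Grey symbols are the 3 shControl libraries and red symbols the 3 shDHX15 libraries. No gene shown overlaps between groups, which the naming rule required of all but DHX15 and MYC. HES4 has the widest spread among the knockdown libraries.

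Among factors that act on MYC protein, members rose and fell, with the ubiquitin list near the shares over all genes tested. Of 24 kinases, phosphatases and other factors that set MYC phosphorylation or isomerisation, 11 rose (45.8%) and 5 fell (20.8%). Over all genes tested, 23.7% were called higher and 20.1% lower. The median log2 fold change was 0.10, against 0.02 over all genes tested. The PIM kinases phosphorylate and stabilise MYC. PIM3 gave 50.2, 51.8 and 52.4 CPM in shControl and 70.7, 91.3 and 94.9 CPM in shDHX15 (0.74), PIM2 gave 22.9, 23.9 and 22.4 CPM against 32.1, 36.1 and 35.3 CPM (0.58), and PIM1 rose by 0.20, a call lost without shControl replicate 2 or 3 and a value of 0.11 without shDHX15 replicate 3. KIAA1524 (the older symbol of CIP2A), an inhibitor of the phosphatase PP2A that protects MYC, gave 33.6, 32.3 and 37.7 CPM against 55.9, 55.9 and 53.3 CPM (0.67). SET, another PP2A inhibitor, fell by 0.39. The kinase GSK3A, which marks MYC for degradation, fell by 0.42 while its paralogue GSK3B, at 135 ± 2.19 CPM against 139 ± 3.08 CPM (SD, n = 3), was not called (-0.09 and called with the offsets). CSNK2A2, a catalytic subunit of casein kinase 2, fell by 0.44. The 5 lower calls became 9 after offsets for GC content and length, with 11 still higher.

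Of 22 MYC ubiquitin ligases and deubiquitinases tested, 6 rose (27.3%) and 4 fell (18.2%), close to the 23.7% and 20.1% over all genes tested (median -0.04, and 0.01 with total counts as the scale). FBXW7, the ligase that recognises phosphorylated MYC, gave 34.2, 33.9 and 35.3 CPM in shControl and 40.6, 41.4 and 40.3 CPM in shDHX15 (0.24), and SKP2, another MYC ligase, rose by 0.25. The deubiquitinase USP37 rose by 0.37 (0.15 with the offsets), the ligase subunit RBX1 fell by 0.42, and USP7 fell by 0.15. The balance of this list turned to 4 higher and 11 lower with GC and length offsets, and was 7 and 7 without shDHX15 replicate 1, and 2 fell without shControl replicate 3. In the list of MYC, MAX and genes of their network, 3 of 18 tested rose (16.7%) and 4 fell (22.2%), MYC included. These shares lay near or below those over all genes tested, and 8 fell with the offsets. MAX itself gave 133 ± 3.74 CPM against 134 ± 3.42 CPM (SD, n = 3) and was not called. The 3 that rose, MXD1 (0.46), MNT (0.32) and MXI1 (0.25), all encode repressors that bind MAX in place of MYC. RUVBL1 (-0.26) and MLX (-0.17) were among those that fell. MYCL, a MYC paralogue, fell at a low level, from 0.503, 1.29 and 1.24 CPM to 0.457, 0.297 and 0.324 CPM.

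Cytosolic ribosomal protein genes formed the most uniform lists of those examined. Of 34 small-subunit ribosomal protein genes, 33 fell and none rose (median -0.59), and all 50 large-subunit genes fell (median -0.44), against 20.1% of all genes called lower. RPS19 gave 1390, 1376 and 1406 CPM in shControl and 913, 774 and 808 CPM in shDHX15 (-0.74). Here shDHX15 replicate 1 was the knockdown library nearest the controls, and over the lists its median deviation was -0.41 and -0.33 against -0.67 and -0.50 in replicate 2 and -0.64 and -0.48 in replicate 3. RPS2 was the exception, with 1719, 1768 and 1761 CPM against 1299, 1767 and 1896 CPM, groups that overlapped. With the offsets 33 small-subunit and 48 large-subunit genes were still called lower. Shared sequence marked 2 small-subunit and 5 large-subunit genes.

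Ribosomal protein mRNAs are known to begin with a run of pyrimidines, the 5′ terminal oligopyrimidine tract, which ties their translation to growth signals. The 3 genes of each subunit with the lowest fold change among those with 1 RefSeq start and such a run are shown, from 10 bases before to 20 bases after the start as transcribed, with the run in capitals.
RPS3: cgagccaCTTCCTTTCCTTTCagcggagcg
RPS12: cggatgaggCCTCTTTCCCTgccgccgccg
RPS27: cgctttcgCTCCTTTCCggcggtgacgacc
RPL35: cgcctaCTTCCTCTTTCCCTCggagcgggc
RPL18: agcccgTTCTCTCTTTCCggacctggccga
RPL22L1: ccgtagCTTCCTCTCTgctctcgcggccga
These lie at chr11:75399508-75399537, chr6:132814559-132814588 and chr1:153990752-153990781 on the plus strand, and at chr9:124861938-124861967, chr19:48619159-48619188 and chr3:170870176-170870205 on the minus strand. A run here is at least 6 bases of C or T that covers the start or begins within the first 4 bases after it. It was found in 48 of 57 ribosomal protein genes with 1 listed start (84.2%) and in 12.9% of all 7606 such genes. The 934 genes with a run that are not ribosomal proteins had a median log2 fold change of 0.01, against 0.03 for the 6624 without.

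RPS3 gave 1629, 1645 and 1673 CPM in shControl and 1129, 947 and 975 CPM in shDHX15. RPS27 gave 1035, 976 and 993 CPM against 694, 611 and 621 CPM. RPL35 gave 628, 610.4 and 627 CPM against 457, 379 and 389.7 CPM. In each, the highest knockdown library, replicate 1, stayed below the lowest control. RPL22L1, the paralogue of RPL22, fell by 0.59.

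Mitochondrial translation and import followed the cytosolic ribosome in direction. Of 77 mitochondrial ribosomal protein genes, 45 fell (58.4%) and 6 rose (7.79%), with a median of -0.21. Over all genes tested, 20.1% were called lower and 23.7% higher. MRPL48 gave 30.9, 31.2 and 28 CPM against 20.7, 19.4 and 19.6 CPM (-0.59), and MRPS7 fell by 0.50, while MRPS6 and MRPS25 rose by 0.18 and 0.17. Without shDHX15 replicate 1, 10 rose and 54 fell, and without replicate 2, 3 rose. Of 29 outer membrane channels and protein import factors, 16 fell (55.2%) and 3 rose (10.3%), with a median of -0.18. The higher count was 1 without shControl replicate 1 or shDHX15 replicate 2. TOMM7, a small subunit of the outer membrane translocase, gave 75, 71.6 and 78.3 CPM against 51.7, 37.1 and 37.1 CPM (-0.84), TIMM22 fell by 0.67 and TIMM13 by 0.58. VDAC1, described above, went the other way and stood alone in its family: VDAC3 fell by 0.27 (0.17 with the offsets), and VDAC2, which shares sequence with other loci, gave 107 ± 3.55 CPM against 107 ± 7.45 CPM (SD, n = 3) and was called higher only with the offsets (0.10). Of the 13 genes of the mitochondrial genome, 11 fell (84.6%) and 1 rose (7.69%) by small amounts (median -0.13). The counts were 4 lower and 3 higher with the offsets, and 7 lower with total counts as the scale or without shControl replicate 1 or 3.

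The splicing machinery, DHX15's own setting, split by class. Of 18 Sm and LSm proteins, the rings around the spliceosomal RNAs, 12 fell (66.7%) and 2 rose (11.1%), with a median of -0.27. Over all genes tested, 20.1% were called lower and 23.7% higher. LSM7 gave 76.8, 77.7 and 79.3 CPM against 54.7, 49.7 and 49.8 CPM (-0.60), SNRPD2 fell by 0.48 (0.31 with the offsets) and SNRPF by 0.47, while LSM11, which belongs to the U7 particle, rose by 0.57. Of 30 other proteins of the U1, U2, U4/U6 and U5 particles, 14 fell (46.7%) and 3 rose (10.0%). With total counts as the scale 10 fell and 6 rose, and 6 rose without shDHX15 replicate 1. EFTUD2, the U5 GTPase, gave 124, 124 and 121 CPM against 84.6, 91.7 and 84.5 CPM (-0.50), SF3A3 fell by 0.39, and SF3B1 rose by 0.32 from 387, 389 and 399.6 CPM to 499, 483 and 485 CPM (0.18 with the offsets). Both groups of libraries were apart for all 3 genes, which were named by adjusted p, as was so for 53.7% of all genes tested.

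Helicases and partners of DHX15 were near the background in number. Of 17 spliceosomal DEAD and DEAH helicases, a list without DHX15, 4 rose (23.5%) and 5 fell (29.4%). Over all genes tested, 23.7% were called higher and 20.1% lower. DDX23, the U5 helicase, gave 393, 388 and 372 CPM against 261, 261 and 257 CPM (-0.56), and DDX46 rose by 0.32 (0.14 with the offsets). Of 23 G-patch proteins, 7 rose (30.4%) and 4 fell (17.4%), with a median of 0.05. GPATCH4 (-0.52) and PINX1 (-0.45), both nucleolar, fell, and GPATCH2 (0.45, and 0.25 with the offsets) and the splicing regulator RBM6 (0.35) rose. With GC and length offsets 4 rose and 5 fell. Of 22 SR proteins, 8 rose (36.4%, against 23.7% over all genes tested) and 5 fell (22.7%, against 20.1%). SRRM1 (0.51) and SRSF11 (0.47, and 0.28 with the offsets) were among the higher, and SRSF3 (-0.28) among the lower. The lower count was 9 with the offsets, 2 with total counts as the scale and 2 or 3 without any 1 library other than shDHX15 replicate 1. Of 26 hnRNP proteins, 10 rose (38.5%) and 2 fell (7.69%, against 20.1% over all genes tested). These counts became 7 higher and 8 lower with those offsets and 13 and 7 without shDHX15 replicate 1. None fell with total counts as the scale or without shControl replicate 1 or 3.

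**Figure D3:**
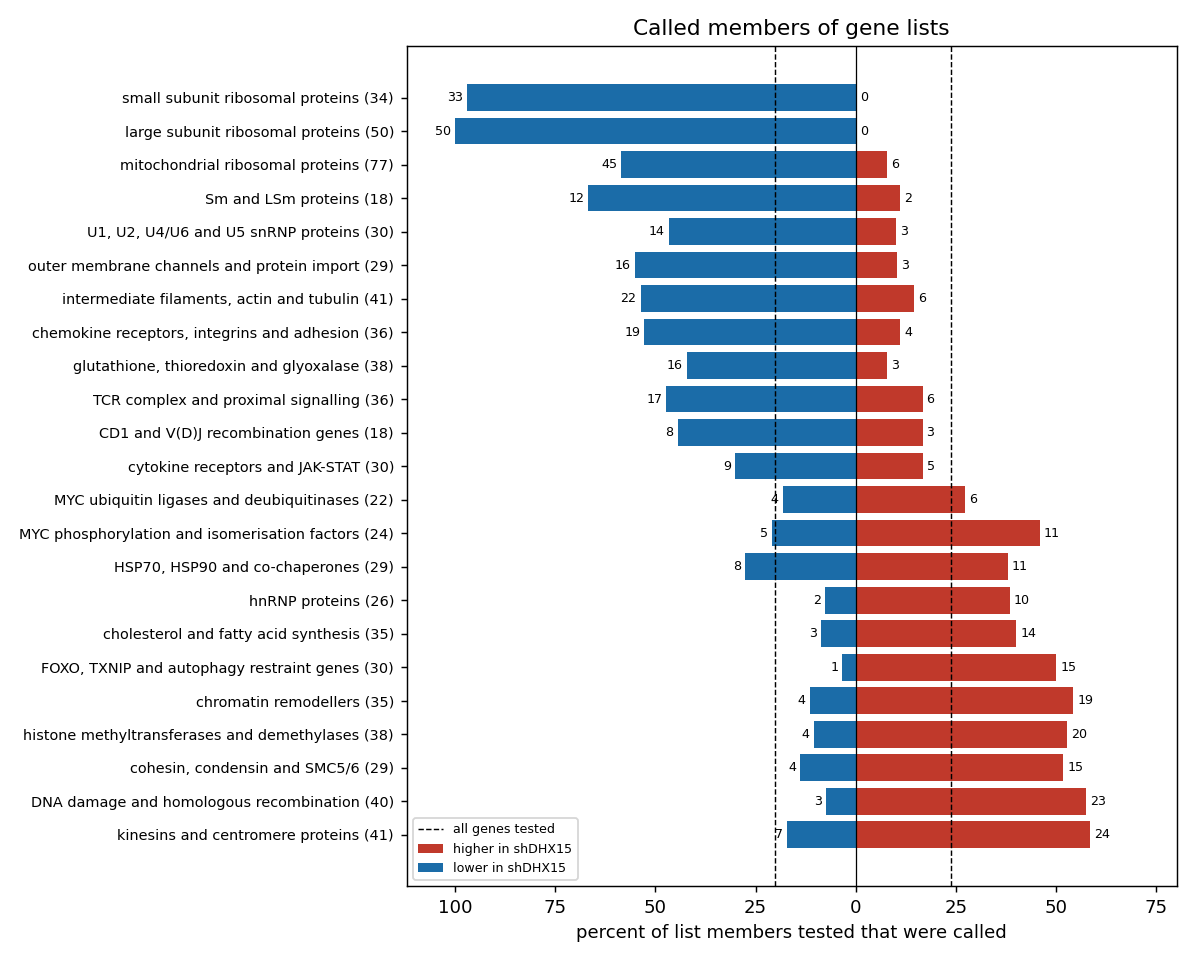
Share of tested members of 23 gene lists called higher (red, right) or lower (blue, left) in shDHX15, in percent, with the number called at the end of each bar and the number tested in brackets. Dashed lines mark the shares over all genes tested, 23.7% higher and 20.1% lower. Among the lists drawn, the cytosolic ribosomal protein lists lie furthest to the left, and the kinesin and DNA repair lists furthest to the right.

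Within several protein families, close relatives moved in opposite directions. Of 29 HSP70, HSP90 and co-chaperone genes, 11 rose (37.9%, against 23.7% over all genes tested) and 8 fell (27.6%, against 20.1%). HSPA8 fell as given above, while the stress-inducible HSPA1B gave 134, 129 and 135 CPM in shControl and 194, 213 and 206 CPM in shDHX15 (0.62) and HSPA1A rose by 0.59. HSPA1A and HSPA1B share most of their sequence, so their separate values are uncertain. HSPA4L rose by 0.43, a call lost with the offsets (0.05), the mitochondrial HSPA9 fell by 0.18, and the endoplasmic reticulum HSPA5 (160.1 ± 1.82 and 162 ± 1.99 CPM, SD, n = 3) was not called. HSP90AA1 rose by 0.20 and HSP90AB1 fell by 0.22.

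Tubulins split in the same way. TUBB, the main beta-tubulin of these libraries, gave 3633, 3638 and 3655 CPM against 2033, 2035 and 2005 CPM (-0.85, edgeR adjusted p = 1.06e-09). TUBA1B gave 3031, 2980 and 3038 CPM against 1909, 1904 and 1884 CPM (-0.67), TUBA1C fell by 0.81 and TUBA1A by 0.64. The last pair overlap at their ends on opposite strands, and whether counting used strand is not given in the sources used here. TUBB4B rose, from 183, 193 and 196 CPM to 275, 296 and 287 CPM (0.59). Over the 41 intermediate filament, actin and tubulin genes, 22 fell (53.7%) and 6 rose (14.6%), with a median of -0.18. Over all genes tested, 20.1% were called lower and 23.7% higher. The list's higher count was 3 without shControl replicate 3 or shDHX15 replicate 2 or 3. ACTB, the main cytoplasmic actin, fell by 0.36.

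**Figure D4:**
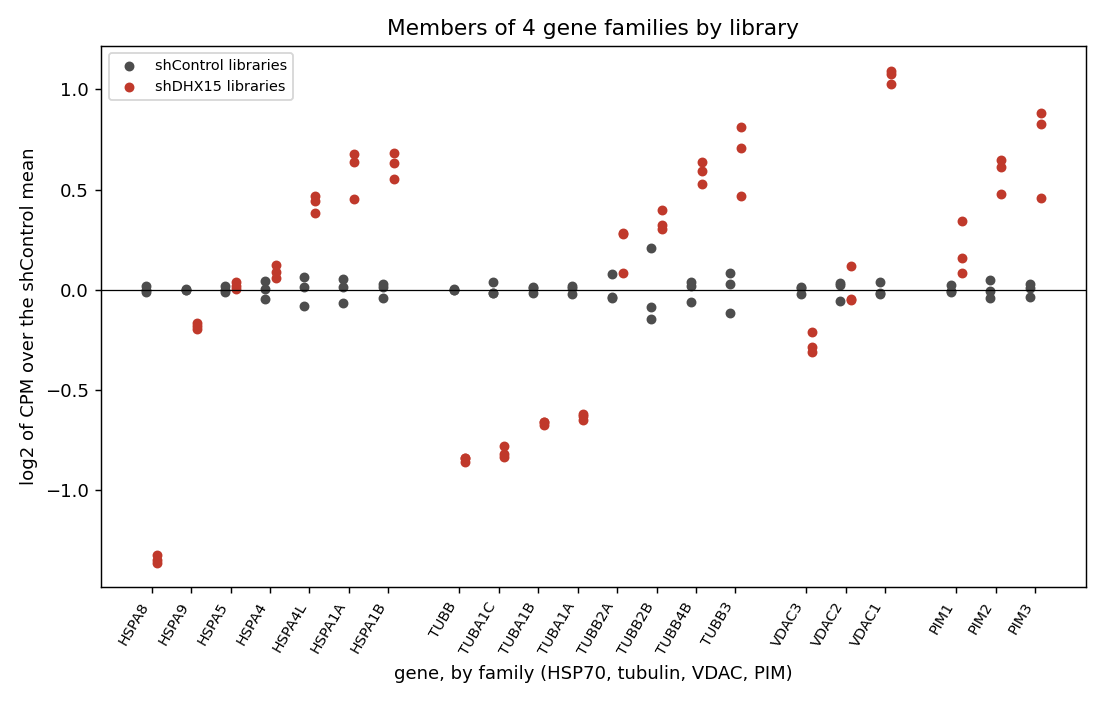
Log2 of each library's CPM over the shControl mean for members of the HSP70, tubulin, VDAC and PIM families. Grey points are the 3 shControl libraries and red points the 3 shDHX15 libraries. HSPA8, TUBB and the TUBA1 genes lie below 0 and HSPA1A, HSPA1B, TUBB4B and VDAC1 above it, with little spread within groups.

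The defining T-cell markers were lower, and genes of the T-cell receptor pathway were divided. All 12 genes fixed as defining markers of immature T cells were detected, with PTCRA the lowest at 2.12 CPM in shControl. Of these, 10 fell (83.3%, against 20.1% over all genes tested, median -0.40). The single higher call, CD7, was lost when any 1 library other than shDHX15 replicate 1 was left out. Of 36 genes of the T-cell receptor complex and its signalling, 17 fell (47.2%) and 6 rose (16.7%, against 23.7% over all genes tested), with a median of -0.09. CD2, an adhesion receptor, gave 124, 122 and 133 CPM against 87.2, 81.8 and 82.1 CPM (-0.59), CD4 gave 15.7, 17.3 and 17.6 CPM against 7.76, 8.48 and 7.97 CPM (-1.06), and CD3G fell by 0.38. The adaptor GRAP2 fell by 0.55, SIT1 by 0.62 and the kinase PRKCQ by 0.42, whereas the phosphatase PTPN6 rose by 0.27 and CD28 by 0.20 (0.13 with the offsets). CD3D was called lower with overlapping groups, a call lost with the offsets (461, 419.6 and 311 CPM against 313, 285 and 297 CPM). Less RNA per cell and fewer cells of a kind cannot be told apart in these bulk libraries.

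Among immature thymocyte genes, the CD1 family and DNTT were lower and the recombinase genes RAG1 and RAG2 were not called. Of 18 CD1 and V(D)J recombination genes, 8 fell (44.4%), 7 were not called and 3 rose, the latter 1 with the offsets. DNTT gave 95.0, 91.1 and 90.7 CPM in shControl and 48.0, 48.7 and 46.4 CPM in shDHX15 (-0.95). CD1C gave 19.96, 20.5 and 22.5 CPM against 12.3, 11.5 and 10.5 CPM (-0.88). CD1E and CD1B fell by 0.85 and 0.80, and CD1D and CD1A by 0.70 and 0.52. The recombinase genes RAG1 (3.63 ± 0.45 and 3.91 ± 0.234 CPM, SD, n = 3) and RAG2 were not called. Of 39 T-lineage and T-ALL transcription factors, 10 rose and 10 fell (25.6% each, against 23.7% higher and 20.1% lower over all genes tested). That split was 14 and 7 with total counts as the scale and 7 and 10 with the upper quartile. LMO2, a T-ALL oncogene, gave 152, 147 and 152 CPM against 109, 108 and 118 CPM (-0.43). ID3 fell by 0.53, TCF12 by 0.37 and IKZF1 by 0.33, while IKZF2 rose from 327, 330.2 and 340.4 CPM to 498, 459 and 451 CPM (0.50, and 0.14 with the offsets) and ID2 rose by 0.52. GATA3, BCL11B and TAL1 were not called. The 10 higher calls were 5 without shControl replicate 1 and 6 without shControl replicate 2 or 3 or shDHX15 replicate 3.

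Cytokine and NOTCH signalling lists held calls in both directions, as did all genes tested (23.7% higher, 20.1% lower). Of 30 cytokine receptor and JAK-STAT genes, 9 fell and 5 rose (16.7%), and 3 rose with the upper quartile as the scale and without shControl replicate 2 or 3 or shDHX15 replicate 2. CISH, a STAT5-induced inhibitor, gave 425, 436 and 429 CPM against 212, 247 and 246 CPM (-0.87), SOCS2, of the same family, fell by 0.61, and the receptor chain IL2RG fell by 0.28. STAT5A, at 616 ± 5.96 CPM and 623 ± 8.62 CPM (SD, n = 3), was not called, and JAK2 rose by 0.42 (0.26 with the offsets). Of 24 NOTCH1 pathway genes, 7 rose (29.2%) and 4 fell (16.7%), and 7 fell with the offsets. NRARP gave 1.13, 1.53 and 1.42 CPM against 2.62, 3.5 and 4.55 CPM (1.38), NOTCH3 rose by 0.56 and DTX1 by 0.41, but HEY1 fell by 1.22. NOTCH1 mRNA (455 ± 6.27 and 439 ± 34.5 CPM, SD, n = 3) was not called (-0.21 and called with the offsets). As in HES4, the lowest knockdown value of NRARP, NOTCH3 and DTX1 was that of replicate 1.

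Of 36 chemokine receptors, integrins and adhesion genes, 19 fell (52.8%, against 20.1% over all genes tested) and 4 rose (11.1%, against 23.7%). The median was -0.15. CXCR4, the receptor for CXCL12, gave 376, 368 and 381 CPM against 319, 289 and 289 CPM (-0.33). CD99 fell by 0.48 and CD44 by 0.37, while CD47 and the integrin chain ITGAL rose by 0.44 and 0.30, CD47 by 0.23 with the offsets. Of 38 glutathione, thioredoxin and glyoxalase genes, 16 fell (42.1%, against 20.1% of all genes), 19 were not called and 3 rose (median -0.17), the latter 1 without shControl replicate 1 or 3 or shDHX15 replicate 3. GPX1, a glutathione peroxidase, was at 76.8, 77.4 and 82.1 CPM against 56.4, 58.3 and 56.1 CPM (-0.47), and GSTP1, a glutathione transferase, fell by 0.37.

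Genes of mitosis and genome maintenance were more often higher. Of 41 kinesins and centromere proteins, 24 rose (58.5%) and 7 fell (17.1%), with a median of 0.24. Over all genes tested, 23.7% were called higher and 20.1% lower. With GC and length offsets, 25 of the list rose. KIF18A, a motor of chromosome alignment, gave 15.8, 14.6 and 15.7 CPM against 27.2, 25.2 and 27.2 CPM (0.79), CASC5 (the older symbol of KNL1) rose by 0.59 (0.28 with the offsets) and NUF2 by 0.56, but CENPW fell by 0.51 and CENPN by 0.38. The 7 lower calls were 12 without shDHX15 replicate 1. Of 29 cohesin, condensin and SMC5/6 genes, 15 rose (51.7%) and 4 fell (13.8%). The lower count was 2 with total counts as the scale or without shControl replicate 3. SMC3 gave 81.9, 80.01 and 82 CPM against 124, 122 and 115 CPM (0.56) and NIPBL rose by 0.55 (0.21 with the offsets), whereas SMC1A fell by 0.23 (0.42 with the offsets). Of 40 DNA damage and homologous recombination genes, 23 rose (57.5%) and 3 fell (7.5%). These counts were 17 and 6 with the offsets. RIF1 gave 84.2, 84.7 and 78.9 CPM against 132, 120.5 and 118 CPM (0.58, and 0.16 with the offsets). BRCA2 rose by 0.52, a call lost with the offsets (0.10), and BRCA1 rose by 0.34 (0.21 with the offsets).

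Chromatin regulators also counted more higher than lower members, and their counts depended on the offsets. Of 35 chromatin remodellers 19 rose (54.3%) and 4 fell (11.4%). Of 38 histone methyltransferases and demethylases 20 rose (52.6%) and 4 fell (10.5%). Over all genes tested, 23.7% were called higher and 20.1% lower. With GC and length offsets the counts were 9 and 9, and 10 and 10, beside 2880 higher and 3647 lower of all 14358 genes tested. HELLS (0.40) and BAZ2B (0.51) rose, by 0.20 and 0.31 with the offsets, and INO80 fell, from 37.6, 39.2 and 35.7 CPM to 26, 26.5 and 26.6 CPM (-0.51). The first list had 12 higher calls without shControl replicate 1, 2 lower without shControl replicate 3 and 8 lower without shDHX15 replicate 1. The second had 2 lower calls with total counts as the scale and without any 1 shControl library and 7 without shDHX15 replicate 1.

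Lipid, survival and stress genes gave smaller groups. Of 35 cholesterol and fatty acid synthesis genes, 14 rose (40.0%, against 23.7% over all genes tested) and 3 fell (8.57%, against 20.1%). The lower count was 5 with the offsets, the upper quartile as the scale, or without shDHX15 replicate 1. HMGCS1, early in the cholesterol pathway, gave 91.6, 95.7 and 96.4 CPM against 155, 138 and 142 CPM (0.61), and SCD, a fatty acid desaturase, rose by 0.51, while INSIG1, a brake on the pathway, fell by 0.40. Of 30 FOXO, TXNIP and autophagy genes, 15 rose and 1 fell. Over all genes tested, 23.7% were called higher and 20.1% lower. The lower count was 4 without shDHX15 replicate 1 and 0 without shDHX15 replicate 2 or any 1 shControl library. DDIT4 gave 284, 288 and 288 CPM in shControl and 427, 429 and 428 CPM in shDHX15 (0.58). ARRDC3 rose by 0.72 and TSC22D3 by 1.03, and KLF6, the lower call, fell by 0.12. YPEL3 gave 27.5, 27.7 and 26.9 CPM against 35.4, 40.7 and 51.9 CPM (0.64), FOXO3, which shares sequence with another locus, rose by 0.23 and CDKN1B by 0.17, but TXNIP (178 ± 4.31 and 168 ± 10.8 CPM, SD, n = 3) was not called with all libraries and was called lower without shDHX15 replicate 1 (-0.15). Of 19 BCL2 family genes, 4 rose (21.1%) and 6 fell (31.6%). The death effector BAX gave 171, 171 and 171 CPM against 117, 107 and 104 CPM (-0.65), and the survival genes BCL2L1 and BCL2 fell by 0.59 and 0.39. The BH3-only genes BMF, PMAIP1 and BCL2L11 rose by 0.62, 0.28 and 0.17, and MCL1 was called lower only without shDHX15 replicate 3 (-0.12).

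RNA sensing, the other setting in which DHX15 is known, gave counts near the shares over all genes: of 27 genes, 8 rose (29.6%, against 23.7%) and 6 fell (22.2%, against 20.1%), with a median of 0.07. With total counts as the scale 12 rose and 6 fell. MAVS gave 250.2, 248.9 and 248 CPM against 199, 213 and 206 CPM (-0.27, and -0.53 with the offsets). OAS2, an interferon-induced sensor of double-stranded RNA, gave 79.7, 79.8 and 79.6 CPM against 47.1, 47.1 and 44.8 CPM (-0.78), and the kinase IKBKE fell by 0.52 while TBK1 rose by 0.39. DDX58 (RIG-I) and IFIH1 (MDA5) were not called. The higher calls numbered 2 to 5 when any 1 library other than shDHX15 replicate 1 was left out.

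Fold change moved with GC content and transcript length. Among protein-coding genes in the bottom tertile of GC content (up to 44.1%) and the top tertile of length of the longest annotated transcript (at least 4676 bases), 47.7% of 2103 were called higher and 10.6% lower. Among those in the middle tertile of GC content and the bottom tertile of length (up to 2745 bases), 11.0% of 1505 were higher and 35.2% lower. At a mean of at least 3 log2 CPM, the first class had median deviations of 0.23, 0.17 and 0.16 in shDHX15 replicates 1 to 3, and the second -0.09, -0.13 and -0.13. Both classes kept 1 direction in all 3 libraries. High-GC long genes did not, with -0.04 in replicate 1 and 0.12 and 0.09 in replicates 2 and 3. Nor did high-GC genes of middle length (-0.07, then 0.07 and 0.06) or low-GC short genes (0.05, then -0.06 and -0.06). The low-GC genes above include ATRX, ATAD5, CENPE, KIF14 and IL6ST, and these kept their calls with the offsets. The part of these properties in the differences was not tested.

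Zinc finger genes (symbols ZNF with a number) are an example of such a class: 160 of 465 rose and 26 fell (median 0.13). With GC and length offsets 119 rose and 57 fell (median 0.06).

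**Figure D5:**
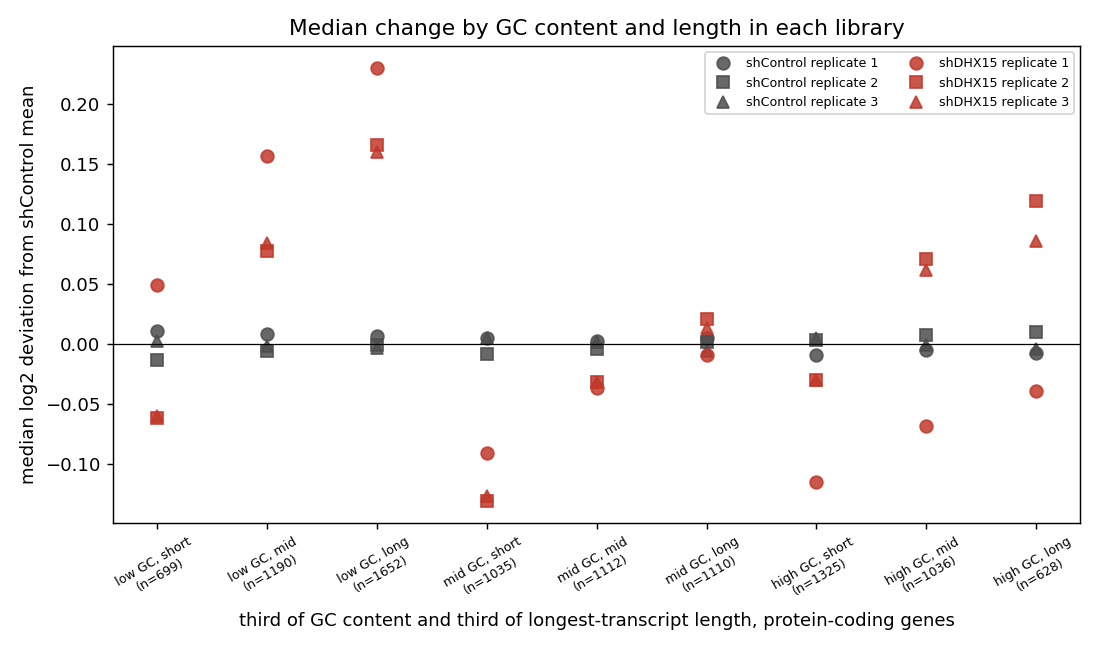
Median log2 deviation from the shControl mean of protein-coding genes with a mean of at least 3 log2 CPM, by tertile of GC content and tertile of longest-transcript length, for each library. Grey symbols are shControl and red symbols shDHX15. Low-GC long genes lie above 0 and mid-GC short genes below 0 in all 3 knockdown libraries. The shDHX15 replicate 1 library is apart from the others in the high-GC and the low-GC classes.

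Most markers of other cell types were low. Of the lists for B cells, myeloid cells, erythroid cells or megakaryocytes, and adherent or packaging cells, 6, 3, 2 and 9 genes passed the count filter. Their summed levels were 53.4 to 56.1, 523 to 554, 0.689 to 1.07 and 26.9 to 27.6 CPM in shControl and 50.7 to 54.5, 408 to 435, 0.363 to 0.754 and 19.1 to 22 CPM in shDHX15. Nearly all of the myeloid sum was MIF, a cytokine made by many cell types, which fell by 0.35 from 534 ± 16.9 CPM to 419.9 ± 13.9 CPM (SD, n = 3). Most of the B-cell sum was CD79A, at 37.9 ± 0.496 and 35.7 ± 1.03 CPM and not called. CD14 gave 0.344 ± 0.138 CPM in shControl and 0.331 ± 0.153 CPM in shDHX15, and EPCAM 0.783 ± 0.067 and 1.14 ± 0.205 CPM (SD, n = 3). Neither was called. CEBPA, a myeloid factor, rose from 0.377, 0.311 and 0.201 CPM to 0.754, 0.759 and 1.21 CPM. FN1 and KRT8 of the adherent list fell by 0.92 and 0.58.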

How the data were processed

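One table of raw gene counts, unscaled whole numbers, was deposited for all libraries. FastQC 0.11.9, HISAT2 2.2.1 and DESeq2 1.32.0, with the build hg38, appear in the submitters' processing notes; the counting program is not given in the sources used here. RNA was poly(A)-selected and read as 150 bp pairs, per the labels' protocols.

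Here the 6 libraries were fitted with edgeR 4.0.16 (filterByExpr, TMM scaling, quasi-likelihood test, Benjamini-Hochberg adjustment over all genes tested, threshold 0.05) in R 4.3.3, with no covariate. DESeq2 1.42.0 was an alternative. CPM values are scaled by TMM factors, and depth is given with the results. Error covers the spread of 3 libraries per group.

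Symbols were matched to GENCODE v29 (GRCh38): 17070 of 17637 matched. Length and GC content are of the longest transcript. Shared sequence means that at least 0.2 of its 100-base windows, taken every 50 bases, occur at another locus. Of 1376 list symbols, 1344 were in the table and 1316 were tested.

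The genes, lists and tests were chosen with earlier results of these data known. Named genes are DHX15, MYC, the 14 highest and 14 lowest called genes with a mean of at least 4 log2 CPM and groups that do not overlap, and list members by adjusted p. The highest and lowest sets leave out symbols of clones or uncharacterised loci (with a dot, or LOC, LINC, C#orf, FAM and KIAA names) and date-like symbols. Further list members were picked after their values were seen. Scripts were tested on simulated data. Alternatives tried were other scalings, filters, thinning, a replicate block, GC and length offsets, and leaving out each library.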

Additional observations from a re-analysis of the deposited data

How the results depend on the processing

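Of the 6283 calls, all that were tested kept their sign under the other scalings, DESeq2, no count filter, thinning, the replicate block and the omission of any 1 library, and 5986 did with GC content and length offsets. Leaving out 1 library gave 4968 to 7391 calls. DESeq2 called 6082 genes. With a mean of at least 3 log2 CPM required, the at least 2-fold calls fell to 5 higher and 17 lower. No scaling moved the median of all genes by over 0.1 on the log2 scale.

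The replicate numbers were not treated as a pairing: same-numbered libraries had deviations that correlated at 0.0205, 0.0198 and 0.0298 over genes, each the best match of its library but under 0.1. With a replicate block, 6303 genes were called (3427 higher, 2876 lower), 6079 of them among the 6283. The block with GC content and length offsets called 6488.

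Of 268 genes covered by the naming rule, 224 kept direction and call in all 17 alternatives. The one added after seeing the data, genes without shared sequence only, called 3112 higher and 3019 lower. Among the genes named here or by the rule, direction reversed only with GC content and length offsets, alone and with the replicate block: GPATCH2L (-0.048 in both), HNRNPU (-0.11 in both), HNRNPA3 (-0.0012 in both), TAF1D (-0.015 in both), SMG1 (-0.19 in both), DIS3 (-0.074 in both), HMGB1 (-0.057 in both), LIG4 (-0.051 and -0.049), PHF6 (-0.0061 and -0.0063), EIF2AK2 (-0.19 in both), MTR (-0.080 and -0.081) and GSK3B (-0.093 in both). The cause was not tested. Depth limits genes near the filter: 3 counts correspond to 0.0503 to 0.0657 CPM.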

Other observations

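Other lists fixed for the comparison gave calls in both directions or mostly lower calls, against 23.7% higher and 20.1% lower over all genes tested. Of 37 aminoacyl-tRNA synthetase genes, 10 rose (27.0%) and 12 fell (32.4%). These counts were 13 and 8 with total counts as the scale and 8 and 13 with the upper quartile. CARS gave 55.6, 55.5 and 59.7 CPM in shControl and 71.9, 71.9 and 70.9 CPM in shDHX15 (log2 fold change 0.33) and GARS rose by 0.31, while QARS fell by 0.25. Of 15 subunits of the CCT chaperonin and prefoldin, which fold tubulin and actin, 7 fell (46.7%) and none rose (median -0.09). PFDN5 gave 189, 188 and 190.2 CPM against 141, 127 and 131 CPM (-0.51) and CCT3 fell by 0.29. In each of these genes, named by adjusted p, the groups did not overlap, as was so for 53.7% of all genes tested.

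Of 16 RNA polymerase I and rDNA factors, 7 fell (43.8%) and 3 rose (18.8%). POLR1A, the largest subunit, gave 58.3, 56.2 and 57.3 CPM against 45.7, 45.3 and 44.5 CPM (-0.34) and POLR1B fell by 0.33. POLR1A fell by 0.60 with GC and length offsets. The lower calls were 4 with total counts as the scale, without shControl replicate 1 and without shControl replicate 3, and 1 rose with the offsets. Of 55 genes of RNA polymerase II, Mediator and elongation, 9 rose (16.4%, against 23.7% over all genes tested) and 14 fell (25.5%, against 20.1%). The lower count was 22 without shDHX15 replicate 1. POLR2F, a small shared polymerase subunit, fell by 0.70, from 30.9, 32.9 and 31.2 CPM to 20.5, 18.2 and 20.1 CPM, and MED13 and CDK8 of the Mediator kinase module rose by 0.47 and 0.46, MED13 by 0.11 with the offsets.

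Of 50 nuclear pore and importin genes, 12 rose and 11 fell. The long pore proteins RANBP2 and TPR rose by 0.58 and 0.56 (0.21 and 0.29 with the offsets), and RAN, the GTPase of nuclear transport, gave 650.3, 619.7 and 625 CPM against 542, 469 and 469 CPM (-0.36). These counts were 21 and 6 with total counts as the scale and 10 and 19 with GC and length offsets. The lower count was 6 without shControl replicate 1, 7 without shControl replicate 2 and 18 without shDHX15 replicate 1. Of 31 PI3K, AKT and mTOR genes, 9 rose and 7 fell, and 3 rose and 12 fell with the offsets: RICTOR rose by 0.54 (0.20 with the offsets), and PIK3CA rose by 0.46, a call lost with the offsets (0.10). The lower count was 4 without shControl replicate 1 or 2 and 3 without shControl replicate 3. Of 20 MHC class I presentation genes, 7 fell (35.0%) and 1 rose (5.0%), and 3 rose with the offsets or without shDHX15 replicate 1. NLRC5, the regulator of class I genes, fell by 0.24 and the immunoproteasome subunit PSMB8 by 0.23, and CALR, the chaperone that rose, moved by 0.31. The 7 lower calls were 4 with total counts as the scale.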
